A study of Mus musculus with 6 samples.

Results

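Mitochondrial fatty acid oxidation and ketogenesis were examined through 37 genes listed for the uptake and activation of fatty acids, the carnitine shuttle, the enzymes of beta-oxidation, electron transfer, ketone bodies and their control. A gene counted as measured when a probe set on the array carried its symbol alone in the platform annotation, and the brightest such probe set over the 6 arrays stood for it. In all 34 of the 37 genes were measured, out of 12393 genes on the arrays, while Acsl1, Acsl3 and Ucp2 had no such probe set and were not analysed here. The arrays were hybridised with RNA of primary mouse hepatocytes, the parenchymal cells of the liver. Of the 6, 3 came from Alb/AEG-1 mice (TG), a transgenic line in which hepatocytes overexpress AEG-1, the product of Mtdh, under the albumin promoter that the line's name gives as Alb, and 3 from wild-type mice (WT). Both genotypes were of mixed strain B6/CBA and untreated, and their cells were plated on collagen and harvested after 24 hours. The sources used here give no age, sex, feeding state or number of founder lines, and do not say whether each of the biological replicates is a separate animal. Values are log2 units of the robust multi-array average (RMA), so a difference of 1 is a doubling of signal, and all differences are TG minus WT.

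Beta-oxidation shortens fatty acids in the mitochondrial matrix, releasing acetyl-CoA and passing electrons to the respiratory chain. A fatty acid is first taken up and joined to coenzyme A, then carried across the inner membrane as a carnitine ester, and then passed through repeated rounds of dehydrogenation, hydration, a further dehydrogenation and thiolysis. In the fasted liver much of the acetyl-CoA becomes ketone bodies, and the nuclear receptor PPARA raises many genes of the route.

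The labels were checked first with Mtdh, whose brightest probe set read 10.72, 10.40 and 10.81 in TG and 8.75, 8.78 and 8.64 in WT. The difference was 1.92 (SE 0.10, limma adjusted p = 2.04e-05). As the mean over its 6 probe sets it was 0.28, so the others showed no rise on average. The label check thus rests on the brightest probe set, and which probe sets can detect the transgene was not worked out. Array medians lay between 5.61 and 5.64. Correlations across genes were 0.9976 to 0.9982 within a genotype and 0.9933 to 0.9940 between genotypes. The 3' minus 5' signal of the Gapdh control probe sets averaged 0.10 ± 0.01 in TG and 0.07 ± 0.06 in WT, and that of Actb 0.88 ± 0.04 in TG and 0.89 ± 0.03 in WT (SD, n = 3 each). Two-sided exact permutation tests gave p = 0.6 and p = 0.5, where 3 arrays against 3 cannot go below 0.1. Of 10 measured hepatocyte markers 1, Ahsg, was higher and none (0) was lower, and their mean level was 13.34 to 13.40 in TG arrays and 13.33 to 13.37 in WT arrays. Kupffer cell and macrophage markers gave 4 of 15 higher (Marco, C1qc, Ptprc and Mrc1) and 2 lower (Cd163 and Cd14), with mean levels of 6.69 to 6.74 in TG and 6.48 to 6.61 in WT. Sinusoidal endothelium markers gave 2 of 12 higher (Kdr and Clec4g), with mean levels of 5.53 to 5.63 in TG and 5.36 to 5.47 in WT. Counts higher and lower were 1 (Lum) and 0 of 11 stellate markers, 1 (Epcam) and 0 of 5 cholangiocyte markers, 0 and 1 (Cidec) of 4 adipocyte markers, 1 (Car1) and 1 (Klf1) of 4 erythroid markers, and 0 and 0 of 7 striated muscle markers. RMA values have no 0, so no marker can be called absent, and the part of other cell types in the results below was not tested.

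The comparison of genotypes asks how these genes differ when AEG-1 is overexpressed. Pdk4, the kinase that shuts off pyruvate dehydrogenase when fat is burned, fell to 31.1% of its WT signal. Apart from it the changes were small. Genes of carnitine supply and transfer (Slc22a5, Slc25a20 and Crat), the medium-chain dehydrogenase Acadm and the matrix hydroxyacyl-CoA dehydrogenase Hadh were lower. So were both listed enzymes for unsaturated chains, Decr1 and Eci1. All of these genes fell by 0.21 to 0.37. The subunits that handle long chains (Hadha and Hadhb), the very-long-chain dehydrogenase Acadvl and the electron carriers did not pass the test. Neither did the short-chain enzymes Acads and Echs1 or the thiolase Acaa2. Whether genes that passed differ from those that did not was not tested, so no split by chain length is drawn. In all 11 of 34 genes were lower and 1, Acad8, was higher by limma with Benjamini-Hochberg adjustment over all 12393 genes at 0.05. Over all genes 15.9% passed, 9.05% as lower and 6.83% as higher, against 35.3% of these 34, 32.4% as lower. These 34 genes were brighter, with array means of 10.48 to 10.66 against 6.48 to 6.50 for all genes. When only the 7008 genes not under the array median were tested, 33.6% passed, 19.8% as lower. Of the 34 genes 32 entered that fit, and 50.0% of them passed, 14 as lower. The median difference was -0.12 over the 34 genes and 0.01 over all genes. Only Pdk4 passed and also changed by at least 1.5-fold, which is 1 of 34 where 2.89% of all genes did. In bulk RNA, fewer cells of a type and less RNA per cell cannot be told apart.

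The number that passed was lower whichever array was left out, and fewer arrays enter those fits. It was 8 without TG replicate 2 and 8 without WT replicate 1, where 11.0% and 13.7% of all genes passed. It was 6 without TG replicate 1, 5 without TG replicate 3, 7 without WT replicate 2 and 6 without WT replicate 3, where 10.2%, 10.7%, 10.8% and 10.7% of all genes passed. TG and WT values were fully separated for 22 of the 34 genes (34.5% of all genes), with TG below WT for 18 (17.6% of all genes) and above it for 4 (16.9% of all genes). A difference below 0 was measured for 28 of the 34, and for 5818 of all 12393 genes.

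**Figure D1:**
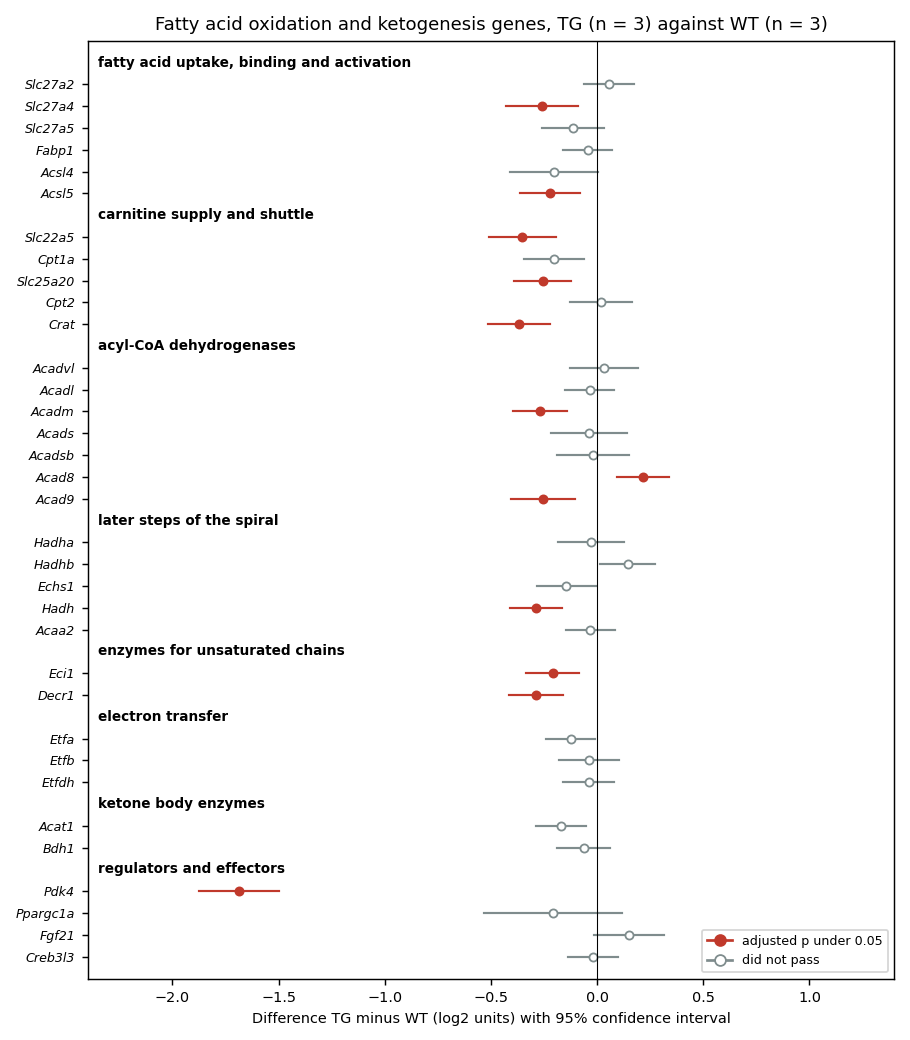
Difference TG minus WT in log2 units (x axis) for the 34 measured genes (y axis), grouped by role. Points are limma estimates with 95% confidence intervals, filled red where the adjusted p passed 0.05. Pdk4 stands alone at -1.69, and the other 11 genes that passed lie between -0.37 and 0.22.

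Among regulators and effectors, 1 of 4 measured genes was lower and 0 were higher. Pdk4 read 7.51, 7.32 and 7.58 in TG hepatocytes, against 9.06, 9.21 and 9.20 in WT hepatocytes. The highest TG array lay well below the lowest WT array. The means were 7.47 ± 0.14 in TG and 9.16 ± 0.09 in WT (SD, n = 3 each), a difference of -1.69 (SE 0.08, 95% interval -1.88 to -1.50) and a 3.22-fold decrease with a limma adjusted p of 1.05e-05. It passed under all 17 alternative settings other than the 1.5-fold requirement, which it also met, with differences from -1.74 to -1.61. Creb3l3, a liver transcription factor that drives fasting genes including Fgf21, was level, at 10.77, 10.77 and 10.72 in TG and 10.78, 10.77 and 10.77 in WT. Its difference of -0.02 had an interval from -0.14 to 0.10. Fgf21, a hormone the fasted liver secretes, read 5.39, 5.36 and 5.36 in TG and 5.35, 5.10 and 5.22 in WT, a difference of 0.15 (adjusted p = 0.211). Ppargc1a, a coactivator of mitochondrial genes, read 5.22, 4.98 and 5.45 in TG and 5.22, 5.66 and 5.38 in WT, a difference of -0.21 (adjusted p = 0.388). The means of both genes in each genotype were below the array median of 5.63, and the interval for Ppargc1a ran from -0.53 to 0.12. Pdk1, Pdk2 and Pdk3, the other kinases of pyruvate dehydrogenase, were chosen after their values were seen. They gave -0.36 (adjusted p = 0.0857), -0.27 (adjusted p = 0.0690) and 0.12 (adjusted p = 0.456). Without WT replicate 1, Pdk1 passed at -0.48 (adjusted p = 0.0196) and Pdk2 at -0.36 (adjusted p = 0.0175). With any other array left out neither passed (limma adjusted p from 0.117 to 0.237 for Pdk1 and from 0.106 to 0.193 for Pdk2). With all arrays, both passed under a variance trend and without genes under the array median, where 21.1% and 33.6% of all genes tested passed. Pdk1 also passed as the mean of its probe sets (limma adjusted p = 0.0406), and Pdk2 with array weights (limma adjusted p = 0.0424).

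Promoters of 3 of these genes are shown to set the sequence beside the values: Pdk4 as the largest decrease, Acadm as a lowered enzyme gene, and Fabp1 as a known PPARA target that did not pass. Each is the 250 bases before the annotated start, from RefSeq (GRCm38.p6), at chr6:5496279-5496528 on the minus strand for Pdk4, chr3:153944644-153944893 on the minus strand for Acadm and chr6:71199629-71199878 on the plus strand for Fabp1. Capitals mark a match, on either strand, to the direct repeat of AGGNCA with 1 base of any kind between the copies, the form that PPARA with its partner RXR binds, in Fabp1, and to the single site AGGTCA in Acadm.
Pdk4: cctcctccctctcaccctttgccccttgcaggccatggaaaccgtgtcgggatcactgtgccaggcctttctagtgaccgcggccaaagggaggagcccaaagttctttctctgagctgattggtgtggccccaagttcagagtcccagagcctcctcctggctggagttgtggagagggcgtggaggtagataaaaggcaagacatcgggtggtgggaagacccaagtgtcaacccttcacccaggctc
Acadm: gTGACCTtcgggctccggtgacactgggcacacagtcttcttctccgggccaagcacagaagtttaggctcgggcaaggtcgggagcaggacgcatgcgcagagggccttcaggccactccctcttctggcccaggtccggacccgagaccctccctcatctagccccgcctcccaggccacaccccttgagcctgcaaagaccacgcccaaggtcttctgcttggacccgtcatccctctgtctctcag
Fabp1: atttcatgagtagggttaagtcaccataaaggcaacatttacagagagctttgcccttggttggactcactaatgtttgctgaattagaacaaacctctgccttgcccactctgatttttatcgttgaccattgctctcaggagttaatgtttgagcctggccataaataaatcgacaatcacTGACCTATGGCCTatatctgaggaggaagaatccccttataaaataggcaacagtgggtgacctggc
The direct repeat was found in the upstream bases of 0.338% of 32851 promoters in the table. Of the 34 measured genes 28 had a promoter there, 30 promoters in all, and 1 promoter, that of Fabp1, held the repeat, starting 67 bases before the start site. Fabp1 held 2 single sites, 1 inside the repeat and 1 left in lower case nearer the start site. The single site was found in 14.0% of all promoters and in 7 of the 30. Those 7 belonged to Acadm, Acadvl, Cpt1a, Creb3l3, Echs1, Fabp1 and Slc27a2, of which Acadm passed the test. Among the 11 lowered genes 8 had a promoter in the table, 0 with the repeat and 1 with the single site. Pdk4 had 0 matches to either pattern in these 250 bases, which says nothing about sites elsewhere.

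Fatty acid uptake, binding and activation gave 2 lower and 0 higher of 6 measured genes. Slc27a4, a fatty acid transport protein with acyl-CoA synthetase activity, read 6.58, 6.69 and 6.59 in TG and 6.84, 7.01 and 6.79 in WT. Acsl5, a long-chain acyl-CoA synthetase, read 11.64, 11.77 and 11.63 in TG and 11.94, 11.87 and 11.90 in WT. The genotypes did not overlap for either gene, and the differences were -0.26 (SE 0.07, adjusted p = 0.0491) and -0.22 (SE 0.06, adjusted p = 0.0435). Both calls sat at the edge of the threshold. The Slc27a4 call was lost when any 1 array was left out (adjusted p from 0.0566 to 0.140), and the Acsl5 call when any array but TG replicate 2 was (adjusted p from 0.0838 to 0.139).

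The main liver transporters and the binding protein differed less. Fabp1, the liver fatty acid binding protein whose promoter is printed above, read 14.41, 14.38 and 14.41 in TG and 14.45, 14.44 and 14.45 in WT. Its difference was -0.05 (interval -0.16 to 0.07), close to the highest value of the table at 14.99, where array signal is compressed. Slc27a2, which activates very long chains, gave 0.06 (interval -0.06 to 0.17), and Slc27a5, the liver transporter that also activates bile acids, gave -0.11 (interval -0.26 to 0.03). Acsl4, a synthetase with a preference for arachidonic acid, read 9.11, 9.01 and 9.19 in TG and 9.12, 9.43 and 9.37 in WT, and the genotypes overlapped. Its difference was -0.20 (adjusted p = 0.184), and it passed without WT replicate 1, at -0.29 (adjusted p = 0.0411). Another Acsl4 probe set fell by 0.42 (adjusted p = 0.00959 over all probe sets).

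Carnitine supply and the carnitine shuttle gave 3 lower and 0 higher of 5 genes, with a median difference of -0.26. Slc22a5 (OCTN2), which brings carnitine into the cell, read 8.61, 8.52 and 8.53 in TG and 8.92, 9.00 and 8.79 in WT. Slc25a20, the carrier that exchanges acylcarnitine for carnitine across the inner membrane, read 10.94, 10.88 and 10.85 in TG and 11.10, 11.21 and 11.13 in WT. Crat, which moves acetyl groups between carnitine and coenzyme A, read 6.04, 6.18 and 6.06 in TG and 6.40, 6.52 and 6.48 in WT. Every TG array lay below every WT array for these 3 genes. The differences were -0.35 (SE 0.07, adjusted p = 0.0115) for Slc22a5, -0.26 (SE 0.06, adjusted p = 0.0218) for Slc25a20 and -0.37 (SE 0.06, adjusted p = 0.00685) for Crat.

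Neither acyltransferase that works with that carrier passed, and the difference between them was not tested. Cpt1a, the liver enzyme of the outer membrane and the controlled step of entry, read 9.97, 9.98 and 9.88 in TG and 10.11, 10.22 and 10.11 in WT. The genotypes did not overlap, but the difference of -0.20 (SE 0.06) missed the threshold with an adjusted p of 0.0586, and its other 2 probe sets gave -0.26 and -0.29 without passing. Cpt2, the enzyme of the inner membrane, read 10.04, 10.10 and 9.94 in TG and 10.04, 10.05 and 9.95 in WT. The groups overlapped, with a difference of 0.02 and an interval from -0.13 to 0.16. The Slc25a20 call was lost without TG replicate 2, TG replicate 3, WT replicate 2 or WT replicate 3 (adjusted p from 0.0587 to 0.0749), while those of Crat and Slc22a5 held without any 1 array. As means of their probe sets, Crat (-0.17, adjusted p = 0.0748) and Slc22a5 (-0.21, adjusted p = 0.0639) did not pass.

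**Figure D2:**
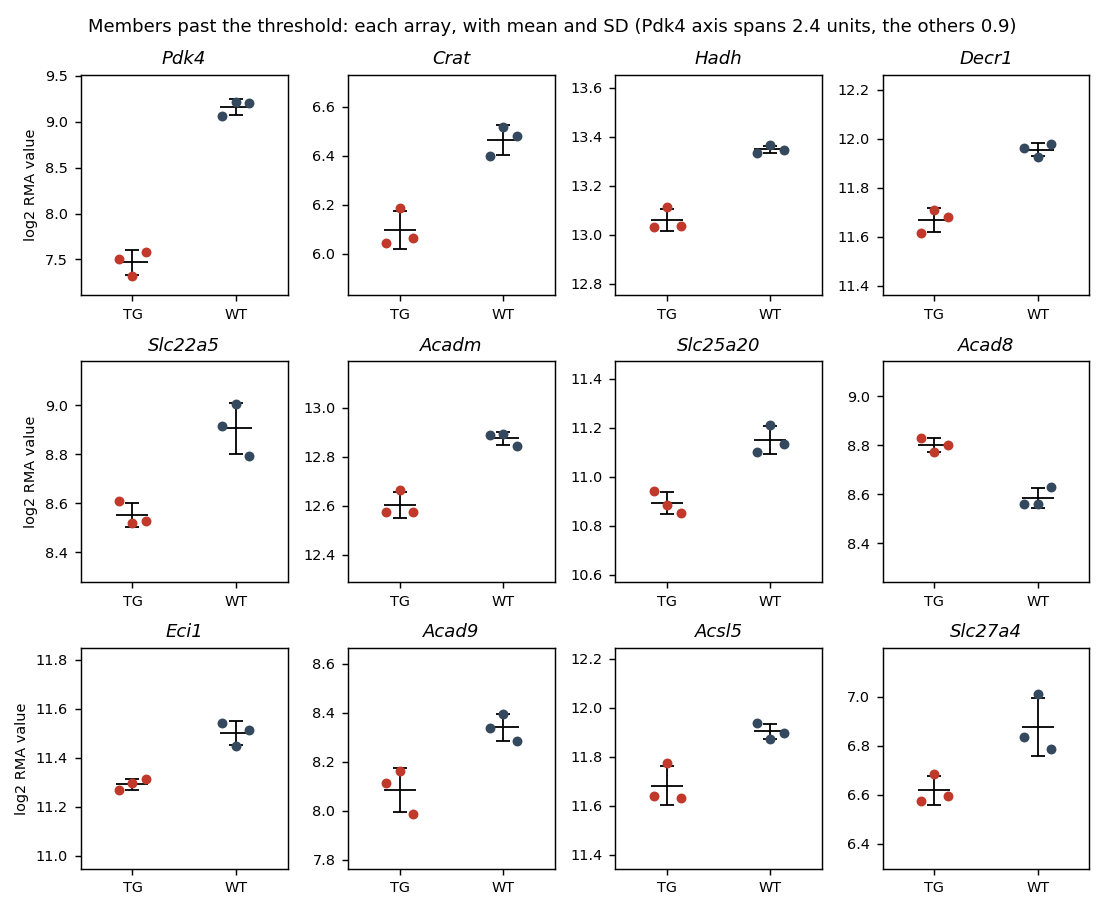
Log2 RMA value (y axis) of each array for the 12 genes that passed, TG in red and WT in dark blue, with the mean and SD of 3 arrays. The genotypes do not overlap in any of the 12 panels, and Pdk4 is drawn on a wider axis because its gap of 1.69 is larger.

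The acyl-CoA dehydrogenases carry out the first dehydrogenation and differ in the chains they take. Of 7 genes 2 were lower and 1 was higher. Acadm, the medium-chain enzyme, read 12.57, 12.67 and 12.57 in TG and 12.89, 12.89 and 12.84 in WT, a difference of -0.27 (SE 0.06, adjusted p = 0.0138). Acad9, known mainly for its part in assembling respiratory complex I, read 8.11, 8.16 and 7.99 in TG and 8.34, 8.40 and 8.29 in WT, a difference of -0.25 (SE 0.07, adjusted p = 0.0361). Acad8, which acts on isobutyryl-CoA in valine breakdown and so stands outside fatty acid oxidation proper, read 8.83, 8.77 and 8.80 in TG and 8.56, 8.56 and 8.63 in WT, a difference of 0.22 (SE 0.05, adjusted p = 0.0304). For these 3 genes the genotypes did not overlap.

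The remaining dehydrogenases did not pass, and their groups lay close together. Acadvl, which takes very long chains at the inner membrane, read 11.80, 11.89 and 11.74 in TG and 11.88, 11.70 and 11.76 in WT. Acadl, the long-chain enzyme, read 11.23, 11.26 and 11.25 in TG and 11.27, 11.29 and 11.29 in WT. Their intervals were -0.13 to 0.19 and -0.15 to 0.08. Acads, for short chains, gave -0.04 (interval -0.22 to 0.14) and Acadsb, for short branched chains, gave -0.02 (interval -0.19 to 0.15). A dimmer Acadl probe set, at 4.09 in TG and 3.83 in WT, was higher by 0.26 (adjusted p = 0.0380 over all probe sets), against the brightest one. The other Acad8 probe set gave -0.04, and the Acad8 call was lost when any 1 array was left out (adjusted p from 0.0520 to 0.106). The Acad9 call was lost when any array but TG replicate 2 was left out (adjusted p from 0.0625 to 0.107), and that of Acadm without TG replicate 1 (0.0590) or TG replicate 3 (0.0519).

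The later steps of the spiral gave 1 lower and 0 higher of 5 genes. Hadh, the matrix enzyme that oxidises medium- and short-chain hydroxyacyl-CoA, read 13.03, 13.11 and 13.04 in TG and 13.33, 13.36 and 13.35 in WT, with a wide gap against the spread within each genotype. Its difference was -0.29 (SE 0.05, adjusted p = 0.00922), and its other 2 probe sets gave -0.29 and -0.30 and also passed, the last on a probe set near the lower end of the scale. Hadha and Hadhb encode the subunits of the trifunctional protein, which carries out these steps for long chains on the inner membrane. Hadha read 10.09, 10.11 and 10.02 in TG and 10.19, 10.13 and 9.99 in WT, and the difference was -0.03 (interval -0.18 to 0.13). Hadhb read 11.34, 11.44 and 11.35 in TG and 11.23, 11.25 and 11.22 in WT, and its difference of 0.14 (adjusted p = 0.129) was in the other direction from Hadh. Its second probe set gave -0.01. Echs1, the short-chain hydratase, gave -0.14 (adjusted p = 0.153), and Acaa2, the matrix thiolase, gave -0.03 (interval -0.15 to 0.09).

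Both listed enzymes that bring double bonds into line for the spiral were lower. Decr1, the dienoyl-CoA reductase, read 11.61, 11.71 and 11.68 in TG and 11.96, 11.92 and 11.98 in WT. Eci1, an enoyl-CoA isomerase, read 11.27, 11.30 and 11.31 in TG and 11.54, 11.45 and 11.52 in WT. Neither pair of groups overlapped. The differences were -0.29 (SE 0.05, adjusted p = 0.0101) and -0.21 (SE 0.05, adjusted p = 0.0360). The second Decr1 probe set gave -0.29 as well (adjusted p = 0.0146 over all probe sets). Eci2 and Eci3, isomerases among the further pathway genes below, were chosen after their values were seen, and neither passed. Eci2 gave -0.14 (limma adjusted p = 0.180). Eci3, with means of 3.76 in TG and 3.68 in WT, gave 0.08 (limma adjusted p = 0.564). With Pdk4 and Hadh, Decr1 passed under the 17 alternative settings that set no minimum fold, whereas the Eci1 call was lost when any array but WT replicate 2 was left out (adjusted p from 0.0792 to 0.118).

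Electron transfer from the dehydrogenases to the respiratory chain gave 0 lower and 0 higher of 3 genes (1 of 3, Etfa, at an unadjusted p under 0.05, as for 28.9% of all genes). Etfa, a subunit of the electron transfer flavoprotein, read 12.49, 12.51 and 12.51 in TG and 12.62, 12.62 and 12.64 in WT. Its groups did not overlap, and the difference of -0.12 (SE 0.05) had an adjusted p of 0.141. Etfb, the partner subunit, read 12.01, 12.08 and 12.03 in TG and 12.15, 11.99 and 12.09 in WT, with overlap and a difference of -0.04. Etfdh, the dehydrogenase that hands these electrons to ubiquinone, gave -0.04 (interval -0.16 to 0.08).

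Of the ketone body enzymes 0 of 2 passed by limma (1 of 2, Acat1, at an unadjusted p under 0.05). Acat1, the mitochondrial acetoacetyl-CoA thiolase, read 12.59, 12.58 and 12.57 in TG and 12.78, 12.71 and 12.76 in WT. The groups did not overlap, and the difference was -0.17 (SE 0.05, adjusted p = 0.0622). Its probe sets all pointed down, 1 of them past the threshold at -0.30, and their mean gave -0.21 (adjusted p = 0.0284). Bdh1, which turns acetoacetate into beta-hydroxybutyrate, read 11.08, 11.11 and 11.10 in TG and 11.21, 11.12 and 11.14 in WT. These groups did not overlap either, and the difference was -0.06 (interval -0.19 to 0.06). The other Bdh1 probe set was dimmer and gave -0.30, also without overlap. It did not pass (limma adjusted p = 0.0584 over all probe sets).

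**Figure D3:**
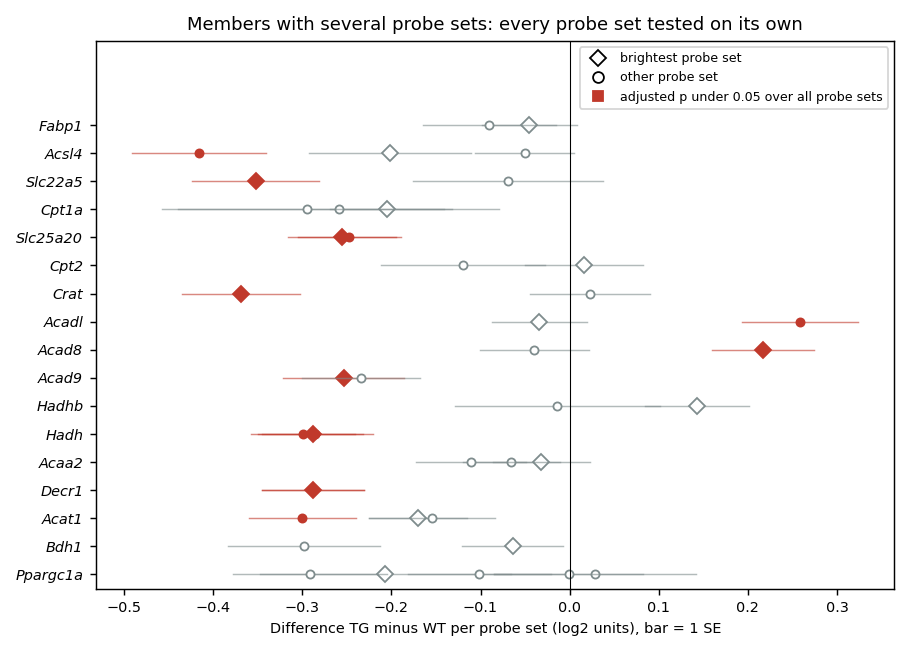
Difference TG minus WT in log2 units (x axis) of every probe set of the 17 genes with several probe sets (y axis). Diamonds are the brightest probe sets, circles the others, bars 1 SE, and red marks an adjusted p under 0.05 over all probe sets. The probe sets of Hadh, Decr1 and Slc25a20 lie together at -0.30 to -0.25. Those of Crat, Acad8, Acadl, Cpt2, Hadhb and Ppargc1a are split in sign.

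Of the 34 genes 17 had more than 1 probe set, which gives a second reading from the same RNA. When every probe set was tested on its own, 12.0% of 22626 passed. The 7 genes of these 17 that had passed by their brightest probe set were Hadh, Decr1, Slc25a20, Acad9, Slc22a5, Crat and Acad8. Another probe set also passed in the same direction for Hadh, Decr1 and Slc25a20. The second probe set of Acad9 gave -0.23 (adjusted p = 0.0565), that of Slc22a5 gave -0.07, that of Crat gave 0.02 and that of Acad8 gave -0.04.

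**Figure D4:**
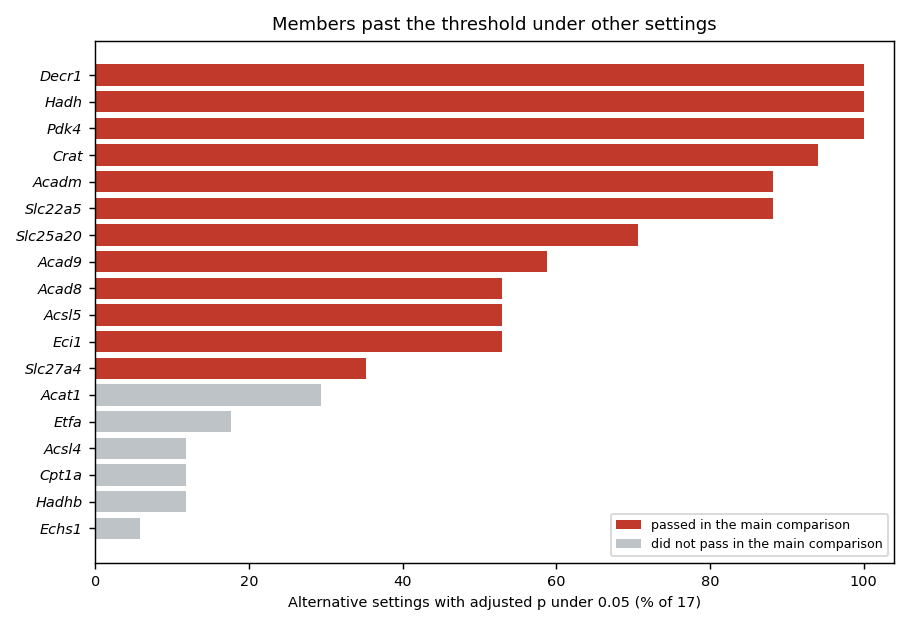
Percent of the 17 alternative settings with no minimum fold (x axis) in which each gene (y axis) passed an adjusted p of 0.05, for genes that passed in the reported fit and for those that passed only elsewhere. Pdk4, Hadh and Decr1 passed in all 17, Crat in 16, and Slc27a4 in 6.

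Further genes of the pathway, from a list of 78 of which 66 were measured, gave 14 lower and 4 higher, or 27.3% called where 15.9% of all genes were. Their median difference was -0.06, and their array means, 8.13 to 8.23, were also above the 6.48 to 6.50 of all genes. The genes named here are the 10 with the smallest p, with Acacb and those marked as chosen later. Among regulators 6 of 18 were lower and 0 higher. Ppara, the receptor named above, read 8.13, 7.99 and 8.01 in TG and 8.71, 8.98 and 8.74 in WT, and the groups did not overlap. Its difference was -0.77 (SE 0.08, adjusted p = 0.000748), a 1.70-fold decrease. Rxra, the partner of that receptor, fell by 0.38 (SE 0.06, adjusted p = 0.00610), but the mean of its 2 probe sets gave -0.16 (adjusted p = 0.0658). Nrip1, a corepressor of nuclear receptors, fell by 0.87 (SE 0.09, adjusted p = 0.000531), and its second probe set fell by 0.60. Sirt3, the mitochondrial deacetylase, fell by 0.39 (adjusted p = 0.0120) and was chosen after its value was seen.

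Flavin supply and electron transfer held the largest increase and a marked decrease. Etfbkmt, a methyltransferase that modifies the Etfb protein, read 8.65, 8.56 and 8.79 in TG and 7.64, 7.69 and 7.77 in WT. The TG arrays were all higher, by 0.97 (SE 0.07, adjusted p = 0.000118), a 1.96-fold increase, and Etfb itself did not pass. Rfk, riboflavin kinase, which makes the flavin cofactor precursor that the dehydrogenases need, read 9.24, 9.33 and 9.23 in TG and 9.79, 9.78 and 9.87 in WT. It fell by 0.54 (SE 0.06, adjusted p = 0.000679), and its dimmer probe sets fell by 1.47 and 0.99. Counts in this group were 1 lower and 1 higher of 8.

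Ketone body use and transport gave 2 lower and 2 higher of 5 genes. Slc16a6, a transporter known in zebrafish to export ketone bodies from the liver, read 9.94, 9.90 and 9.77 in TG and 9.43, 9.24 and 9.32 in WT. It was higher by 0.54 (SE 0.07, adjusted p = 0.00204), with no overlap. Slc16a7, another monocarboxylate transporter, read 8.44, 8.49 and 8.41 in TG and 8.90, 8.68 and 8.87 in WT, and fell by 0.37 (SE 0.07, adjusted p = 0.0103). Slc16a1, chosen after its value was seen, was higher by 0.21 (adjusted p = 0.0446), a call lost when any 1 array was left out (adjusted p from 0.0650 to 0.132). Aacs, which activates acetoacetate in the cytosol for lipid synthesis, fell by 0.33 (SE 0.05, adjusted p = 0.00436), while averaging its probe sets gave -0.19 (adjusted p = 0.0581).

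Of 13 further dehydrogenase and spiral genes 4 were lower and 0 higher. Hsd17b10, a mitochondrial hydroxyacyl-CoA dehydrogenase best known for isoleucine breakdown, read 11.35, 11.35 and 11.33 in TG and 11.89, 11.84 and 11.81 in WT. It fell by 0.51 (SE 0.05, adjusted p = 0.000605), and its second probe set fell by 0.55. Gcdh, the glutaryl-CoA dehydrogenase of lysine breakdown, fell by 0.29 (adjusted p = 0.0129) and was chosen after its value was seen. In uptake and activation 1 of 9 was higher and 0 were lower. That gene was Acsm2, for medium chains, at 6.01, 5.98 and 5.62 in TG and 5.20, 5.10 and 5.28 in WT (difference 0.68, SE 0.11, adjusted p = 0.00476), with the WT signal under the array median and its other 3 probe sets not passing. The propionyl-CoA branch gave 1 lower of 6. Control of the shuttle gave 0 of 7 by limma (3 at an unadjusted p under 0.05), with Acacb, which makes the malonyl-CoA that restrains Cpt1a, at -0.20 (adjusted p = 0.0658).

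**Figure D5:**
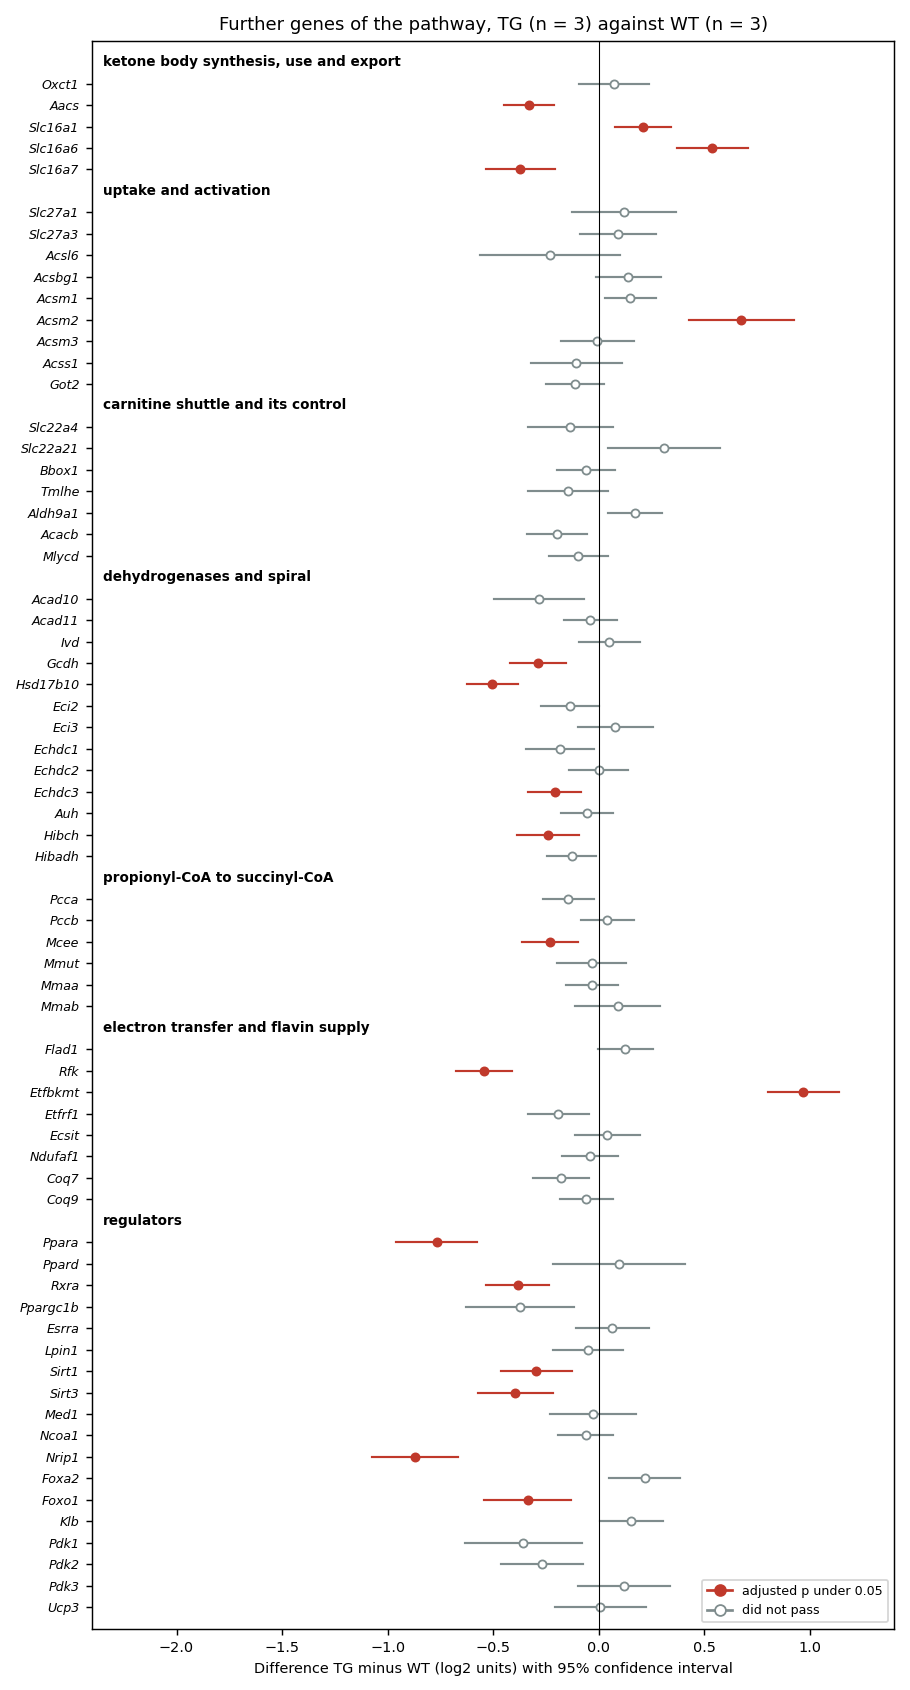
Difference TG minus WT in log2 units (x axis) with 95% confidence intervals for the 66 further pathway genes measured (y axis), grouped by role, filled red where the adjusted p passed 0.05. Etfbkmt at 0.97 and Nrip1 at -0.87 are the extremes.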

How the data were processed

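What the authors deposited is 1 log2 value per probe set and array. The submitters' processing notes name RMA and Affymetrix Expression Console, with no versions, and leave unstated whether the 6 arrays were processed jointly. RMA equalises distributions between arrays, so changes are relative to the other genes, and differences shrink at very low or high signal. Precision is limited by the number of arrays, which carry no sequencing depth.

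Of 22690 probe sets 20380 carried 1 gene symbol, 691 several, 1555 none and 64 were controls. The brightest probe set stood for each of 12393 genes. TG and WT were compared with limma 3.58.1 in R 4.3.3 (lmFit, eBayes, two-sided), with Benjamini-Hochberg adjustment over all genes at 0.05. Intervals are 95% and unadjusted. The fit was tested on simulated data in which 200 genes changed by 0.5 or 1 log2 unit. It recovered 73.5% of them at 0.5 and 99.0% at 1, with 9 and 7 false calls. Smaller changes, such as those of every member that passed except Pdk4, were not simulated.

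The members and lists were chosen with earlier results of these data known. Named were all 34 measured members, Mtdh, the 10 further pathway genes of smallest p past the threshold, Ppara, Acacb, and markers past it. The p-values cover only the variation among these samples, which may be technical. Promoters came from RefSeq (GRCm38.p6). Alternatives covered the probe set used, filters, scaling, variance models, left-out arrays, the replicate block and a 1.5-fold requirement.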

Additional observations from a re-analysis of the deposited data

How the results depend on the processing

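Pdk4, Hadh and Decr1 passed under each of the 17 alternative settings that set no minimum fold (with at least 1.5-fold required, Pdk4 alone of the 34 passed), whereas the other 9 genes that had passed lost the call in at least 1, and 6 that had not passed did so in at least 1. None of the 12 changed sign (0). Over single genes and settings, 950 results kept direction and side of the threshold. The 15 that turned sign all belonged to genes that did not pass. As means of probe sets Cpt2 gave -0.0517 and Acadl 0.112. Quantile normalized again, Acadsb gave 0.0149, Hadha 0.00146 and Creb3l3 0.00779. Leaving out 1 array gave Cpt2 -0.0213 to 0.0597, Acadvl -0.00893 to 0.0812, Acads -0.102 to 0.0120, Acadsb -0.0903 to 0.0204 and Hadha -0.0849 to 0.0124.

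Leaving out 1 array gave 1267 to 1700 genes changed, 727 to 961 lower and 540 to 739 higher. It gave 5 to 8 of the 34 changed, 5 to 8 lower and 0 to 0 higher, and 12 to 18 of the further pathway genes, 9 to 15 lower and 3 to 3 higher. Fewer samples enter those fits. With the replicate block 1505 genes and 8 of the 34 passed, 8 lower and 0 higher. Deviations of same-numbered arrays from their group means correlated at -0.01, -0.01 and 0.10 across genes, so the numbers were not taken to pair the samples. Without moderation of the variances 1271 genes changed, 711 lower and 560 higher, and 2 further pathway genes were higher. As means of probe sets 0 of the 34 were higher. With a variance trend 17 of the 34 passed, 15 lower and 2 higher, where 21.1% of all genes passed. The same trend gave 32 further pathway genes changed, 25 lower and 7 higher. Without genes under the array median 32 of the 34 were tested and 16 passed, 14 lower and 2 higher, where 33.6% of 7008 genes passed. In that setting 29 further pathway genes changed, 23 lower. With at least 1.5-fold required, 358 genes passed, 188 lower and 170 higher, with 1 of the 34, 1 lower and 0 higher, and 4 further pathway genes, 2 lower and 2 higher. The cause of these shifts was not tested. Genes under the array median of 5.63, such as Fgf21 and Ppargc1a, may be limited by background, and Fabp1 by the upper end of the scale. Neither limit was tested.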
